A study of Homo sapiens with 12 samples.

Results

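NUGC-4 cells, an established diffuse gastric cancer line labelled wild type, were treated for 24 h with 1 µM IN10018 and 1 µM crizotinib together (3 libraries, called the combination) or left as control (3 libraries). These 6 of the 12 RNA libraries of the series form the comparison, which asks what both drugs together changed. All 12 libraries came from the same line in the same medium at 24 h. The other libraries received 1 µM IN10018 alone (3 libraries) or 1 µM crizotinib alone (3 libraries) and entered as a background for the combination. Whole read counts were given for 60623 genes, of which 17096 passed a filter on low counts in the 12 libraries and were tested. Separate cultures are not mentioned in the labels, and every p-value therefore speaks for the spread over these 3 libraries per group, which may be technical. Cells of a single line in bulk were read, so fewer cells of a state and less RNA per cell cannot be told apart.

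IN10018 is an inhibitor of FAK, the focal adhesion kinase encoded by PTK2, a cytoplasmic enzyme that is activated where integrins hold the cell to its matrix and that signals to SRC, to the RAS-ERK cascade and to the coactivators YAP and TAZ. Crizotinib inhibits the receptor tyrosine kinases MET, ALK and ROS1. Growth factor receptors and integrins converge on ERK, which switches on a layer of short-lived messengers, the immediate early genes (FOS, FOSB, JUN, EGR1 and others), and through them the entry into DNA replication. YAP and TAZ, held in check by the Hippo kinases, bind TEAD factors and drive genes such as CCN1 and CCN2. The series title names this FAK to YAP route, the thioredoxin system and the loss of CDH1 (E-cadherin).

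The line showed the epithelial keratins that its label implies but few gastric genes. KRT8 stood at 1384, 1344 and 1445 CPM in control libraries 1 to 3. CPM here is the usual depth-scaled read count, taken over the reads of tested genes after scaling by the trimmed mean of M-values (TMM). KRT19, a keratin of simple epithelium, had 0 reads in all 12 libraries, and 6 of 7 gastric markers were under 1 CPM in control, among them MUC5AC with 1 read in all. COL3A1, a fibrillar collagen of fibroblasts, was read at 6046 ± 326 CPM (SD, n = 3) in control, while 3 of 7 fibroblast markers were under 1 CPM. The description label speaks of adipogenic differentiation, and 4 of 8 adipocyte markers were under 1 CPM, ADIPOQ and LPL with 0 reads. The other 4 were not. FABP4, a fatty acid carrier, had a mean of 71.3 CPM in control and 112 CPM in the combination, PPARG, the adipogenic nuclear receptor, of 39.2 and 20.3 CPM, CEBPA of 1.91 and 1.08 CPM and PLIN1 of 1.21 and 3.09 CPM. Immune markers were under 1 CPM for 5 of 6. The exception was CD14, with 4921 reads in the 12 libraries and a mean of 21 CPM in control and 31 CPM in the combination.

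Most of the tested genes differed between the combination and control libraries. Against control, 5761 genes were higher (33.7% of those tested) and 4968 lower (29.1%) at an adjusted p under 0.05 (edgeR quasi-likelihood F test, Benjamini-Hochberg over all tested genes), 62.8% in all. The 3 combination libraries lay above all 3 control libraries for 6474 genes (37.9%) and below them for 5669 (33.2%). At least 2-fold changes were found for 2889 higher and 1437 lower genes, and at least 4-fold changes for 489 higher and 70 lower genes. The strongest changes by p-value were losses of inducible genes: FOSB, FOS, ATF3, PPP1R15A, TRIB1 and EGR1 had the smallest p-values of the whole comparison. Because so many genes were called, a list of genes is read here against 33.7% higher and 29.1% lower. Among protein-coding genes alone, which fill most of the lists, the shares were 30.6% higher and 36.5% lower. A list near either pair of shares does not stand out. With library totals as the scaling, the median of all genes shifted by 0.179 on the log2 scale and the split turned to 7113 higher and 3763 lower, so that 65.4% of calls were higher in place of 53.7%.

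Several measures moved with the groups, and each result below is read beside them. Mitochondrially encoded genes took 11.21, 10.997 and 11.916% of the reads of the control libraries and 6.992, 4.28 and 6.616% of those of the combination libraries, a difference of -5.41 percentage points (exact two-sided permutation p = 0.1, the smallest that 3 against 3 allows). Combination library 2 had both the lowest share and the fewest reads (13691844, against up to 20489708 in control library 3), and it stood furthest along the first principal component, at 91.35 against 56.28 and 37.77 for libraries 1 and 3 and -54.65 to -41.91 in control. Without combination library 2, the counts were 4717 higher and 4399 lower. Changes also followed the GC content of the transcripts. In the quintile of genes with 23.1 to 41.0% GC the median log2 change was -0.53, with 9.0% of genes higher and 55.8% lower, and in the quintile with 57.7 to 74.5% GC it was 0.78, with 67.8% higher and 4.5% lower.

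Measured against the control mean, this gradient was present in all 3 combination libraries. In the 3 IN10018 libraries the medians of the lowest and highest quintiles lay between -0.05 and 0.02. Control libraries lie around 0 by construction, since their mean is the reference. From the lowest to the highest quintile the median log2 ratio to the control mean ran from -0.43 to 0.61 in combination library 1, from -0.70 to 0.93 in library 2 and from -0.36 to 0.49 in library 3, while each control library stayed within 0.05 of 0 in these quintiles. A fit with an offset for GC content and transcript length, chosen after seeing the data, tested 16866 genes and called 4911 higher (29.1%) and 4393 lower (26.0%), 55.2% in all. Of 10611 called genes with a known GC content, 6504 were called the same way with the offset and 498 the opposite way. The part of GC content, transcript length and mitochondrial share in the results was not tested otherwise, and the value with the offset is given beside list counts and for named genes whose call it changes. Genes that kept their call could still change in size. ITGA1 went from -1.49 to -0.67 with the offset and BRCA2 from -1.61 to -0.71, while EGR1 went from -2.75 to -3.07. Sizes below are without the offset unless stated.

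**Figure D1:**
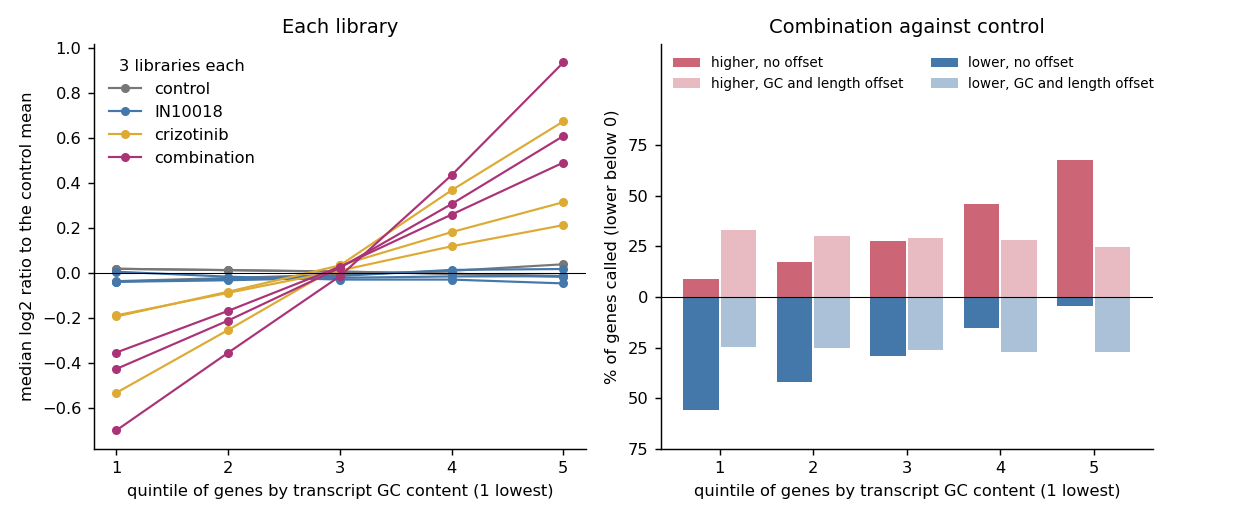
Left, median log2 ratio to the control mean (vertical) in each library over quintiles of tested genes ordered by transcript GC content (horizontal). Right, percentage of genes called higher or lower in the combination against control in each quintile, without and with the GC content and length offset. The combination libraries rise from between -0.70 and -0.36 in the lowest quintile to between 0.49 and 0.93 in the highest, while the control libraries stay near 0.

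Most immediate early genes fell. Of 24 genes listed, 22 were tested, 19 were lower (86.4%) and 2 higher, with a median log2 change of -1.69 against 0.095 for all tested genes, and with the offset 20 were lower and 1 higher. FOSB, a partner of JUN in the AP-1 transcription factor, stood at 369, 567 and 514 CPM in control and at 2.80, 2.92 and 2.39 CPM in the combination. All 3 combination libraries lay below every other library of the series, and the change was -7.48 ± 0.22 on the log2 scale (± SE, edgeR adjusted p = 1.4e-10), a 179-fold lower level. FOS, the founding AP-1 member, went from 818, 969 and 1047 CPM to 9.82, 11.1 and 18.0 CPM, again without overlap with any other library (-6.18 ± 0.23, adjusted p = 1.4e-09).

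EGR1, a zinc finger factor induced by growth factors through serum response factor (SRF), went from 63.5, 76.8 and 101 CPM to 12.3, 10.9 and 12.6 CPM (-2.75 ± 0.16, adjusted p = 2.0e-07). The groups did not overlap, and the combination libraries lay within a narrow band. JUN, the partner of the FOS proteins, fell by 2.69 ± 0.20, from 43.5, 51.5 and 73.9 CPM to 9.04, 8.41 and 8.76 CPM. The FOSB and EGR1 genes lie at chromosome 19, 45467995 to 45475179, and chromosome 5, 138465490 to 138469315 (GRCh38). The 250 bases before their start sites, as RefSeq gives them on GRCh38.p14, are shown for this pair, picked for its unlike falls. Capitals mark the CArG box, the site known to bind SRF. Whether the box goes with the size of a fall was not tested.

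FOSB promoter, chr19:45467746-45467995, plus strand: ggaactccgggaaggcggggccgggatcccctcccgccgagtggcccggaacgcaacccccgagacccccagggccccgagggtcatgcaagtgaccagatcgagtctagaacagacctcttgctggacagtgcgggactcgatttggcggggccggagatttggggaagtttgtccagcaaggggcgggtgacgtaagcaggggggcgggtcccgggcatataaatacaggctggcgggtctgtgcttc

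EGR1 promoter, chr5:138465229-138465478, plus strand: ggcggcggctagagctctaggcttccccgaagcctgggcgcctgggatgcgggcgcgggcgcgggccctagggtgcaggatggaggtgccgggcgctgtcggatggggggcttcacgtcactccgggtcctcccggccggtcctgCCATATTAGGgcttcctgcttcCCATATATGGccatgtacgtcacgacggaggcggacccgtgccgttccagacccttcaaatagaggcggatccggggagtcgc

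EGR1 holds 2 CArG boxes in this window and FOSB holds none, and neither holds the exact letters TGACGTCA of the cyclic AMP response element. Close variants were not counted, although the EGR1 window holds TCACGTCA and the FOSB window TGACGTAA. Sites further from the start were not searched. The windows therefore do not show that FOSB lacks SRF sites or that either gene lacks the response element. Searched on both strands, a CArG box was found in 3 of 22 promoter windows of the listed genes (13.6%, those of EGR1, EGR2 and SRF) and in 1.17% of 34788 promoter windows of the same length. The 22 windows belong to 17 of the 24 listed genes. A match is a description of the letters only. SRF itself went from 18.5 ± 0.541 to 14.8 ± 1.40 CPM (-0.33 ± 0.12, adjusted p = 0.024), a call lost with library totals, with no filter, without combination library 1 and without control library 1.

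The remaining immediate early factors spread over a wide range. ATF3, a stress-inducible repressor, went from 20.9, 26.4 and 23.0 CPM to 0.714, 0.903 and 0.367 CPM (-5.15 ± 0.26, adjusted p = 4.9e-08). KLF4, an epithelial zinc finger factor, had 87, 72 and 112 reads in control and 1, 0 and 2 reads in the combination, which gives an 88.3-fold lower level with an exact 95% counting interval of 29.9 to 431.0. The orphan nuclear receptors NR4A1 (-2.12 ± 0.21), NR4A2 (-2.05 ± 0.13) and NR4A3 (-1.13 ± 0.31) all fell, NR4A2 from 84.7, 121 and 98.9 CPM to 27.2, 21.9 and 24.4 CPM. MYC, the growth-promoting factor, fell by 0.98 ± 0.18, from 103 ± 3.89 to 52.5 ± 7.04 CPM. IER2 and IER3 were the 2 members that rose. IER2 went from 13.3, 14.6 and 16.4 CPM to 34.9, 50.3 and 26.0 CPM (1.32 ± 0.26), with no overlap, and IER3 rose by 0.45 ± 0.13 but changed sign with the offset (-0.31).

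Regulators that act after induction fell as well. PPP1R15A, the phosphatase subunit that restores translation after stress, went from 170, 202 and 215 CPM to 13.7, 16.2 and 12.7 CPM (-3.79 ± 0.20, adjusted p = 6.4e-08). TRIB1, a pseudokinase adaptor for protein degradation, went from 223, 272 and 285 CPM to 44.8, 40.6 and 47.3 CPM (-2.56 ± 0.13, adjusted p = 6.8e-08). Both were separated from control in every library. DUSP1, the phosphatase that switches off MAP kinases, fell by 1.74 ± 0.17, ZFP36, which destabilises messengers, by 1.85 ± 0.26, and CITED2, a coactivator adaptor, by 2.10 ± 0.13.

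**Figure D2:**
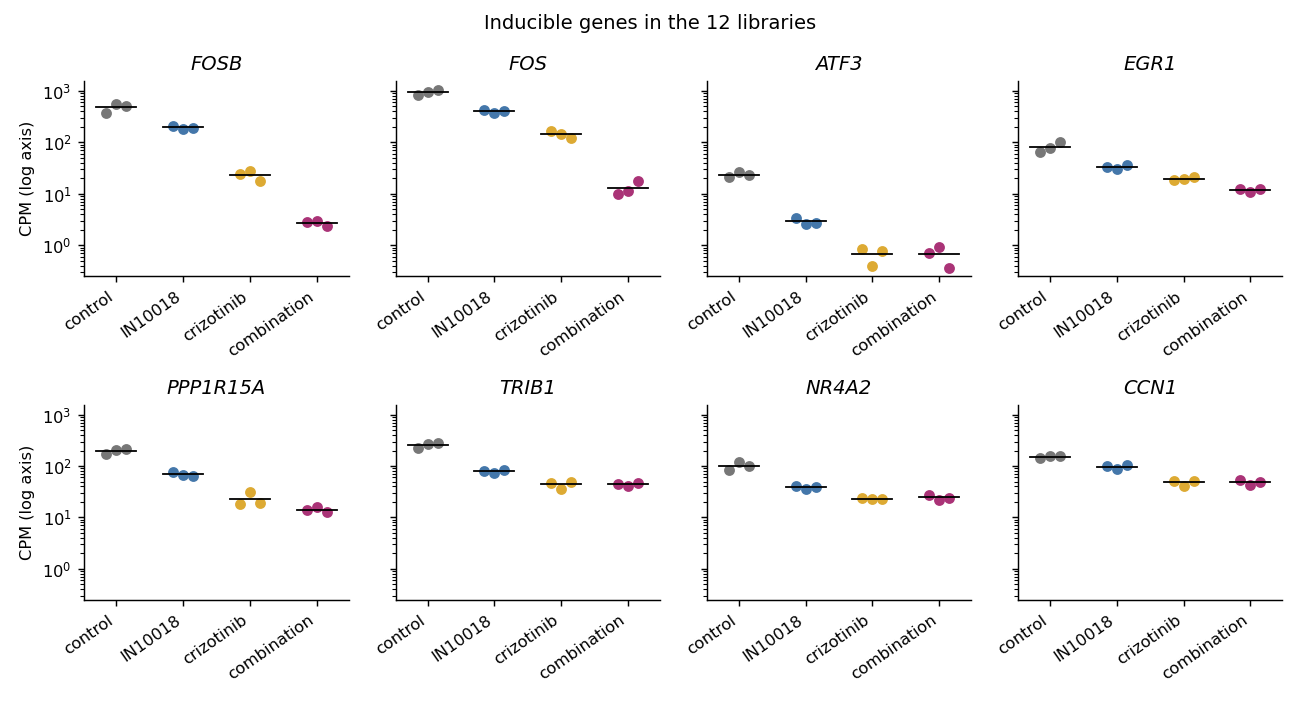
CPM on a log axis (vertical) of 8 inducible genes in each of the 12 libraries, by group (horizontal), with a bar at the group mean. FOSB, FOS, EGR1 and PPP1R15A are lowest in the 3 combination libraries, whereas ATF3, TRIB1, NR4A2 and CCN1 overlap with the crizotinib libraries.

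The genes of the drug targets themselves were lower. MET, the hepatocyte growth factor receptor, stood at 788, 700 and 746 CPM in control and at 258, 205 and 314 CPM in the combination (-1.52 ± 0.16, adjusted p = 3.9e-05). PTK2, which encodes FAK, went from 356, 350 and 357 CPM to 190, 145 and 189 CPM (-1.02 ± 0.15, adjusted p = 0.00014). Neither overlapped with control, and with the offset both stayed lower, at -0.94 and -0.61. ALK, at 3.99 ± 0.468 CPM in control, fell by 0.99 ± 0.21 (adjusted p = 0.0013). ROS1 had 0 reads in the 6 libraries out of 96821228 reads, which allows at most 0.0310 CPM by library totals (3 counts, counting error only).

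Among receptor tyrosine kinases and their ligands, 6 of 30 tested members were higher and 11 lower (36.7%), and with the offset 6 and 12. EGFR, the epidermal growth factor receptor, fell by 1.69 ± 0.22, from 847 ± 60.4 to 263 ± 48.4 CPM (adjusted p = 8.1e-05). EPHA2, an ephrin receptor, went from 90.2, 86.4 and 88.6 CPM to 52.1, 49.7 and 51.7 CPM (-0.79 ± 0.10), below every other library. AXL fell by 0.44 ± 0.09 and IGF1R by 0.42 ± 0.11, the latter not called with library totals. VEGFA, the angiogenic ligand, rose by 0.79 ± 0.10, from 131 ± 2.36 to 226 ± 17.8 CPM, and ERBB3 by 0.32 ± 0.10, a call lost with DESeq2, with no filter, without control library 2 and without control library 3.

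Feedback genes of the ERK cascade did not all move. Of 28 tested, 14 were lower and 2 higher, with a median of -0.51, and with the offset 18 were lower and 4 higher. With library totals 4 were higher. SPRED2, which blocks RAF activation, fell from 66.3, 60.1 and 67.1 CPM to 21.4, 18.5 and 26.3 CPM (-1.55 ± 0.22, adjusted p = 0.00012). SPRY2 (-0.99 ± 0.15), SPRY4 (-0.65 ± 0.13), SPRED1 (-1.03 ± 0.16) and the ETS factor ETV5 (-0.58 ± 0.12) also fell, and PHLDA1, an apoptosis-linked ERK target, fell by 1.04 ± 0.14. DUSP6, the cytoplasmic ERK phosphatase and a common readout of ERK activity, stood at 255, 241 and 283 CPM in control and 256, 252 and 256 CPM in the combination. The groups overlapped, and the change was -0.03 ± 0.09 (adjusted p = 0.81). With the offset it was 0.27 (adjusted p = 0.012). CCND1, which encodes cyclin D1, changed by -0.03 ± 0.12 (adjusted p = 0.85) and DUSP4 by 0.21 ± 0.11 (adjusted p = 0.12), called higher with the offset, with library totals, with the within-group axis as covariate and without crizotinib library 1.

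Target genes of YAP and TAZ with TEAD were largely lower. Of 27 listed, 25 were tested, 18 were lower (72.0%) and 2 higher, with a median of -0.61, and with the offset 19 were lower and 4 higher. The higher calls numbered 1 with DESeq2 and without combination library 2, control library 2 or control library 3. CCN1, a matricellular protein and long-used YAP readout, went from 141, 155 and 155 CPM to 53.4, 42.0 and 49.1 CPM (-1.64 ± 0.13, adjusted p = 3.8e-06). CCN2, its relative, had 13, 13 and 15 reads in control and 0 in each combination library, an at least 13.4-fold lower level (floor of 3 counts over the group). EMP1, a membrane glycoprotein, fell by 2.11 ± 0.19, and AMOTL2, a feedback inhibitor of YAP, by 0.83 ± 0.09.

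The promoter of CCN2, on the minus strand just before the gene at chromosome 6, 131948176 to 131951373, is shown because its messenger was not detected in any combination library. Capitals mark the TEAD core CATTCC, which reads GGAATG on the opposite strand.

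CCN2 promoter, chr6:131951373-131951622, minus strand: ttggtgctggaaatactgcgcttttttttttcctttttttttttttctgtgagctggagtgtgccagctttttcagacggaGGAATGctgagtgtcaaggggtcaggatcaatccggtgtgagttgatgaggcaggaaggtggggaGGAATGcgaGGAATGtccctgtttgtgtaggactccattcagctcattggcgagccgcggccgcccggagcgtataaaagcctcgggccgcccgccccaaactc

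The window holds 3 TEAD cores. The motif was found in 10 of 22 promoter windows of the listed target genes (45.5%) and in 11.9% of all promoter windows. The 22 windows belong to 19 of the 27 listed genes.

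The Hippo pathway's own genes were lower too, though here the offset took away much of the size. Of 19 tested, 12 were lower (63.2%) and 1 higher, with a median of -0.85 that became -0.38 with the offset, where 11 were lower and 1 higher. YAP1 stood at 82.2, 75.3 and 78.3 CPM in control and 42.3, 32.5 and 48.8 CPM in the combination (-0.93 ± 0.16, adjusted p = 0.00026), without overlap, and changed by -0.45 with the offset. WWTR1, which encodes TAZ, fell by 0.96 ± 0.13 and TEAD1, their DNA-binding partner, by 1.22 ± 0.15, from 678 ± 38.6 to 291 ± 44.2 CPM. The kinases LATS1 (-1.15 ± 0.21) and LATS2 (-1.05 ± 0.14), which phosphorylate YAP, fell together with their substrate. STK3 (-0.85 ± 0.10) and STK4 (-0.52 ± 0.10), the kinases above LATS, were called lower, but their values with the offset were -0.06 and 0.00 and not called.

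Adhesion genes around FAK were more often lower than higher. In the focal adhesion and FAK-SRC list 18 of 30 tested members were lower (60.0%) and 5 higher, a median of -0.52. The higher calls numbered 2 or 3 without combination library 1 or 2 or control library 1 or 3, and with the offset 19 were lower and 1 higher. PARVA, which links integrins to actin, went from 123, 115 and 120 CPM to 68.0, 59.0 and 73.2 CPM (-0.84 ± 0.10), below all 9 other libraries. FERMT2, an integrin activator, fell by 1.21 ± 0.17 and the talin TLN2 by 0.89 ± 0.12. With the offset PARVA, FERMT2 and TLN2 changed by -0.30, -0.39 and -0.82. SRC, the kinase that FAK recruits, rose by 0.38 ± 0.13 (adjusted p = 0.021), a call lost with DESeq2, no filter, the offset (-0.03) and without combination library 2, control library 1 or control library 3.

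Among integrin subunits 7 of 15 tested were lower and 4 higher, and with the offset 6 were lower and 1 higher. The collagen receptors ITGA1 (-1.49 ± 0.21) and ITGA2 (-1.24 ± 0.18), the laminin receptor ITGA6 (-0.88 ± 0.13) and the shared beta chain ITGB1 (-1.11 ± 0.16) fell. ITGB1 stood at 1516, 1356 and 1487 CPM in control and at 635, 520 and 859 CPM in the combination, without overlap. ITGA10, a collagen receptor of low level, went the other way, from 0.973, 1.21 and 0.479 CPM to 3.69, 3.34 and 2.94 CPM (1.92 ± 0.30, adjusted p = 0.00019), above every other library.

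Matrix genes were split, with 13 of 32 tested members higher and 13 lower, and 5 higher and 13 lower with the offset. THBS1, an adhesive glycoprotein, fell by 1.82 ± 0.21 and the laminin chain LAMB1 by 0.92 ± 0.11. The laminin chain LAMB2 rose from 195, 211 and 194 CPM to 423, 629 and 411 CPM (1.29 ± 0.19), and TIMP1, an inhibitor of matrix proteases, rose from 206, 197 and 217 CPM to 524, 720 and 403 CPM (1.41 ± 0.20). In both, combination library 2 was the highest. Of 18 tested junction and epithelial genes, 8 were lower and 6 higher, and with the offset 7 were lower and 1 higher. CDH1 stood at 5.54, 4.24 and 5.85 CPM in control and 2.32, 2.43 and 3.80 CPM in the combination (-0.87 ± 0.21, adjusted p = 0.0025), without overlap. The tight junction protein CLDN4 rose by 1.87 ± 0.23 while CLDN1 fell by 1.00 ± 0.15, and the catenin CTNNA1 fell by 0.77 ± 0.12. JUP, the plakoglobin gene, was called higher (0.75 ± 0.12) but not with the offset (0.12).

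Genes of the dividing cell fell together. Of 46 tested genes of S phase and DNA replication, 32 were lower (69.6%) and 3 higher, with a median of -0.66, and with the offset 40 were lower and 1 higher. Without combination library 2 the counts were 32 lower and 0 higher, and without control library 1 or 3 the higher calls numbered 1 and 0. MCM2, a subunit of the replicative helicase, went from 94.9, 92.8 and 91.3 CPM to 31.1, 28.1 and 40.0 CPM (-1.49 ± 0.14, adjusted p = 2.0e-05). RRM1 (-0.98 ± 0.09) and RRM2 (-1.82 ± 0.19), the subunits of ribonucleotide reductase, fell, as did MCM10 (-1.43 ± 0.11), which acts in origin firing, and DTL (-1.51 ± 0.14), which directs destruction of licensing factors. For RRM1 and MCM10 all 3 combination libraries lay below the other 9.

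MCM6 (chromosome 2, 135839626 to 135876426) went from 388, 368 and 377 CPM to 201, 179 and 216 CPM (-0.93 ± 0.10, adjusted p = 4.7e-05), below all 9 other libraries. Its promoter shows the E2F core, the known binding site of the factors that switch on replication genes when the RB protein is phosphorylated. Capitals mark TTTCGCGC or its reverse complement GCGCGAAA.

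MCM6 promoter, chr2:135876444-135876693, minus strand: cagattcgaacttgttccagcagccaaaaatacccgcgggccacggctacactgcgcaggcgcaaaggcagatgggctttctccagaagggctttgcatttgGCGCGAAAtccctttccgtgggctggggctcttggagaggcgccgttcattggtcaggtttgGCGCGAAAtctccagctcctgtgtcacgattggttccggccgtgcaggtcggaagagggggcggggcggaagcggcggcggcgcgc

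The MCM6 window holds 2 such cores. Over the S phase list, 4 of 53 windows held one (7.55%), against 0.428% of all promoter windows. The 53 windows belong to 39 of the 46 listed genes.

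Genes of G2 and mitosis were lower for 44 of 57 tested members (77.2%) and higher for 4, with a median of -0.56. With the offset 37 were lower and 4 higher, and without combination library 2 43 were lower and 2 higher. Without control library 2 there were also 2 higher. FOXM1, a transcription factor for mitotic genes, went from 82.7, 83.2 and 79.1 CPM to 43.3, 39.3 and 43.1 CPM (-0.96 ± 0.10, adjusted p = 3.7e-05), below all 9 other libraries. ECT2, which starts cytokinesis, fell by 1.73 ± 0.18, cyclin A2 (CCNA2) by 1.40 ± 0.15 and the spindle checkpoint gene MAD2L1 by 1.10 ± 0.12. KIF11, the spindle motor, went from 269, 263 and 269 CPM to 149, 120 and 165 CPM (-0.88 ± 0.13), but was not called with the offset (-0.15). Its promoter (gene at chromosome 10, 92593286 to 92655395) is shown for the cell cycle homology region TTTGAA, the element of mitotic promoters, in capitals, here as its reverse complement TTCAAA.

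KIF11 promoter, chr10:92592880-92593129, plus strand: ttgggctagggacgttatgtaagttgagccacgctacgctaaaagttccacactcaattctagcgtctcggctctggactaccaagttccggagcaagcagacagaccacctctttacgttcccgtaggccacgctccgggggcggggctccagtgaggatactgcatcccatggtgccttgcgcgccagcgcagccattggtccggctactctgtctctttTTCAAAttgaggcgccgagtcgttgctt

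The element occurs once in it. It was present in 25 of 60 windows of the G2 and mitosis list (41.7%) and in 13.3% of all promoter windows. The 60 windows belong to 47 of the 57 listed genes.

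Regulators of the G1 phase and repair genes went the same way. Of 18 tested G1 genes, 11 were lower and 1 higher, and with the offset 14 were lower. CDK6, a kinase that phosphorylates RB, went from 287, 255 and 248 CPM to 75.6, 68.7 and 87.1 CPM (-1.77 ± 0.14, adjusted p = 6.6e-06), CDK2 fell by 1.15 ± 0.17, and the RB family genes RBL1 and RB1 fell by 1.45 ± 0.17 and 1.88 ± 0.29. The only riser of the list was CDKN1C, the p57 inhibitor, from 0.823, 1.03 and 0.905 CPM to 3.93, 4.38 and 3.06 CPM (2.03 ± 0.28), above all other libraries. In homologous recombination and the Fanconi pathway 24 of 32 tested were lower (75.0%) and 2 higher, with a median of -0.77 that became -0.34 with the offset, where 19 were lower and 1 higher. BRCA2 fell by 1.61 ± 0.17, the helicase BRIP1 by 1.64 ± 0.19, and FANCB and FANCI by 1.78 ± 0.17 and 0.85 ± 0.09.

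**Figure D3:**
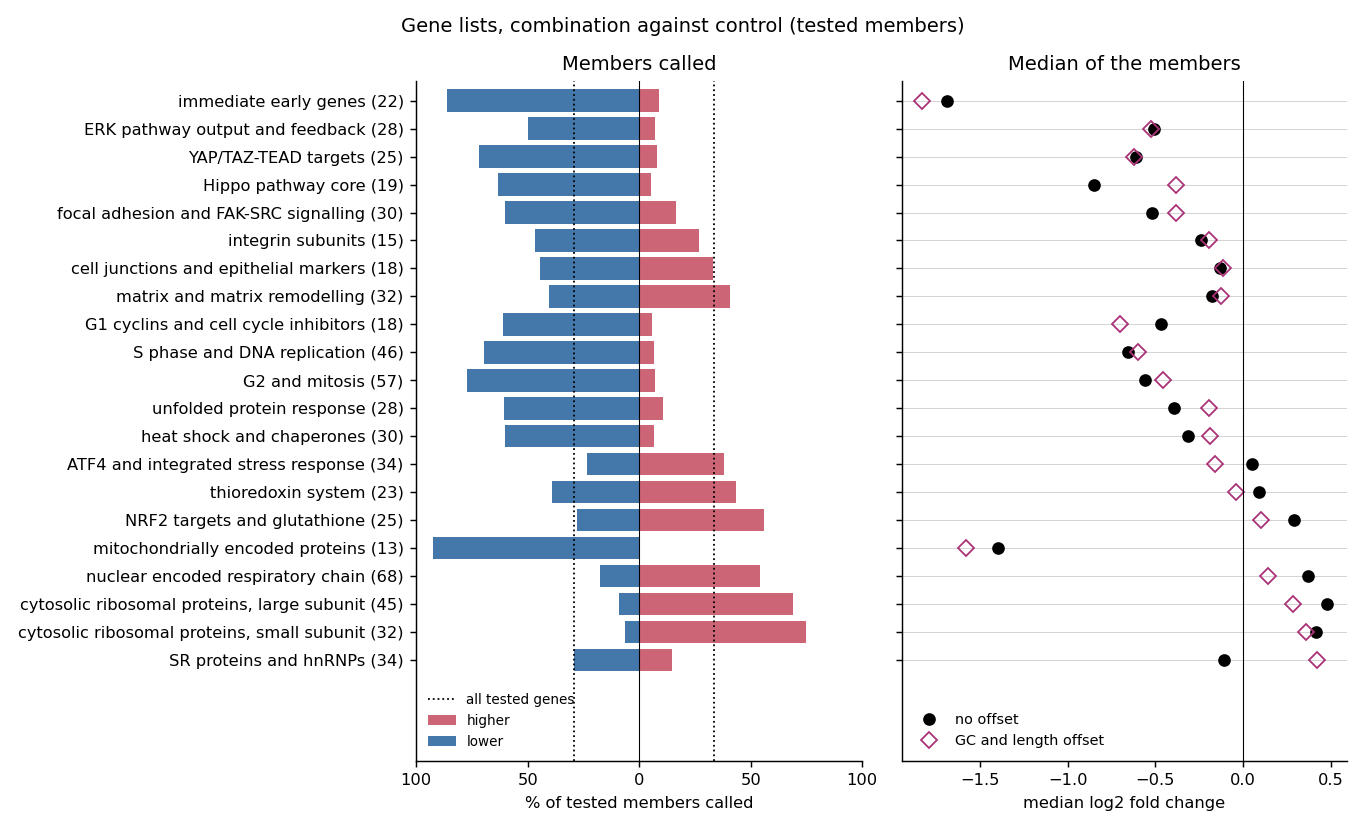
Left, percentage of tested members called higher (to the right) and lower (to the left) in the combination for 21 gene lists, with dotted lines at the percentage over all tested genes (33.7 and 29.1%). Right, median log2 change of each list without and with the GC content and length offset. Immediate early genes reach 86.4% lower, mitochondrially encoded genes 92.3% and G2 and mitosis genes 77.2%, while the ribosomal protein lists reach 68.9 and 75.0% higher.

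Mitochondrially encoded messengers fell unevenly. Of the 13 protein-coding genes of the mitochondrial genome, 12 were lower (92.3%) and none higher, with a median of -1.40, and 10 were lower either with library totals or without combination library 2. MT-ATP8, an ATP synthase subunit, went from 448, 481 and 567 CPM to 56.8, 26.5 and 73.7 CPM (-3.25 ± 0.58, adjusted p = 0.00038). The complex I subunits MT-ND4L (-2.13 ± 0.39) and MT-ND4 (-1.66 ± 0.36) and the oxidase subunit MT-CO1 (-1.48 ± 0.35) followed. MT-ND5, from the same genome, stood at 5032, 5068 and 5170 CPM in control and 4898, 4224 and 4712 CPM in the combination (-0.14 ± 0.12, adjusted p = 0.30). The groups did not overlap, but the change was not called. The mitochondrial leucine tRNA gene MT-TL1 fell by 2.57 ± 0.51.

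**Figure D4:**
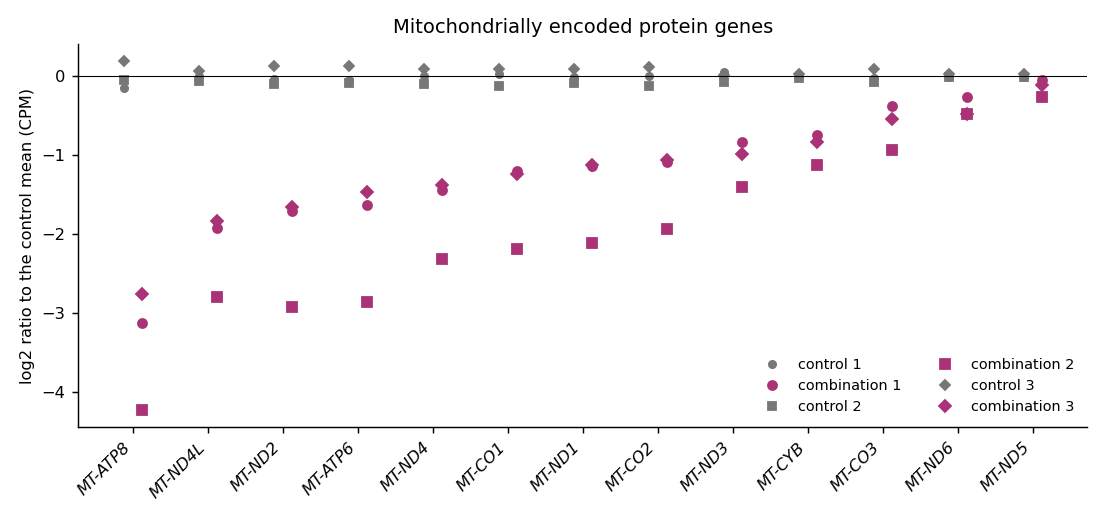
Log2 ratio to the control mean CPM (vertical) of the 13 mitochondrially encoded protein genes (horizontal) in each control (grey) and combination (purple) library, with 1 marker shape per replicate number. Combination library 2 is the lowest in 12 of the 13 genes, MT-ND6 being the exception, and MT-ND5 lies between -0.27 and -0.06 in the 3 combination libraries.

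Nuclear genes for the respiratory chain moved the other way. Of 68 tested, 37 were higher (54.4%) and 12 lower, with a median of 0.37 that became 0.14 with the offset, where 29 were higher and 15 lower. NDUFA11, a complex I subunit, rose from 1.12, 1.27 and 1.28 CPM to 5.29, 6.46 and 3.43 CPM (2.03 ± 0.26), NDUFB1 by 1.04 ± 0.15 and the ATP synthase subunit ATP5PO by 1.14 ± 0.18. NDUFA13 (1.34 ± 0.22) was not called with the offset (0.31). Cytosolic ribosomal protein genes were higher for 31 of 45 tested large-subunit and 24 of 32 small-subunit members (68.9 and 75.0%), with 4 and 2 lower. With the offset 24 and 20 members were higher and 9 and 5 lower. RPL18 rose by 1.45 ± 0.23, RPL13A by 1.07 ± 0.18 and RPS15 by 1.19 ± 0.20. Reads of ribosomal protein genes can be shared with their many processed pseudogenes, so single members are uncertain.

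Stress pathways gave mixed patterns. Of 34 tested genes of ATF4 and the integrated stress response, 13 were higher and 8 lower, but with the offset 7 were higher and 13 lower, so the direction of the list depended on the offset. NUPR1, a stress-induced chromatin protein, rose from 0.673, 0.908 and 0.798 CPM to 5.24, 5.56 and 3.55 CPM (2.57 ± 0.31, adjusted p = 5.9e-05). DDIT4, an inhibitor of mTORC1, rose from 11.1, 12.1 and 12.3 CPM to 31.4, 35.5 and 27.0 CPM (1.40 ± 0.12), above all 9 other libraries. DDIT3, which encodes CHOP, rose by 1.10 ± 0.19, whereas the cystine transporter SLC7A11 fell by 1.21 ± 0.19. ATF4 itself (0.63 ± 0.13) was not called with the offset (0.07).

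In the unfolded protein response 17 of 28 tested were lower (60.7%) and 3 higher, and with the offset 14 were lower and 7 higher. With library totals 11 were lower and 5 higher. EIF2AK3, the sensor kinase PERK, went from 28.7, 25.7 and 29.4 CPM to 12.7, 7.92 and 11.9 CPM (-1.36 ± 0.18), below all other libraries, and EDEM1, ERO1A and HERPUD1 of the degradation and folding machinery fell by 0.91 ± 0.15, 0.90 ± 0.16 and 0.59 ± 0.10. The chaperone HSPA5 (BiP) changed by -0.02 ± 0.10 (adjusted p = 0.87), and by 0.27 with the offset (adjusted p = 0.040). Heat shock proteins and chaperones were lower for 18 of 30 tested and higher for 2, for 14 and 3 with the offset and for 11 and 7 with library totals. The chaperonin genes CCT5 (-0.62 ± 0.09) and TCP1 (-0.84 ± 0.13) and the HSP110 relative HSPA4L (-1.21 ± 0.18) were among those that fell.

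Survival genes changed in both directions. In the BCL2 family 6 of 14 tested were higher and 5 lower, and with the offset 2 were higher and 6 lower. MCL1, a short-lived survival protein, went from 442, 468 and 472 CPM to 227, 193 and 239 CPM (-1.07 ± 0.12, adjusted p = 4.7e-05), and the pro-apoptotic BCL2L11 (BIM) fell by 1.32 ± 0.24. The pro-apoptotic BAX rose by 1.51 ± 0.28, with combination library 2 highest at 45.2 CPM against 26.8 and 21.4 CPM. Of 28 tested p53 targets, 14 were lower and 6 higher, with 12 lower and 3 higher under the offset and 10 each way with library totals. RRM2B and the death receptor FAS fell by 1.42 ± 0.22 and 1.46 ± 0.26. Of 23 tested FOXO targets, 10 were lower and 6 higher, and 7 were lower and 10 higher with the offset. The higher calls numbered 3 with DESeq2, with no filter and without control library 2, and 2 without control library 3. BCL6, a repressor under FOXO control, rose by 1.48 ± 0.13 and PDK4, a pyruvate dehydrogenase kinase, fell by 1.02 ± 0.14.

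The thioredoxin system, named in the series title, was split. Of 23 tested members, 10 were higher and 9 lower, with a median of 0.09 (-0.04 with the offset), and 12 were higher and 5 lower with library totals. TXN, which encodes thioredoxin, stood at 111, 102 and 122 CPM in control and 94.6, 80.7 and 94.8 CPM in the combination. The groups did not overlap, and the change was -0.31 ± 0.11 (adjusted p = 0.028), a call lost with library totals and without combination library 2, control library 1 or control library 3. TXNRD1, the cytosolic reductase that recharges thioredoxin, went from 428, 426 and 456 CPM to 234, 188 and 260 CPM (-0.94 ± 0.14, adjusted p = 0.00014), and by -0.57 with the offset. TXNRD2, its mitochondrial counterpart, rose by 1.17 ± 0.24.

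Other thiol enzymes also parted. PRDX5, a peroxiredoxin, rose by 1.82 ± 0.31, from 72.6, 70.2 and 80.1 CPM to 219, 397 and 171 CPM, with library 2 again the highest. The methionine sulfoxide reductase MSRB2 rose by 1.55 ± 0.29 and MSRB3 fell by 0.75 ± 0.13. TXNIP, the inhibitor of thioredoxin, rose by 0.31 ± 0.11 (adjusted p = 0.027), a call lost in 8 of the alternatives run. Of 25 tested NRF2 targets and glutathione genes, 14 were higher (56.0%) and 7 lower, and with the offset 10 were higher and 6 lower. With library totals 4 were lower. The aldo-keto reductases AKR1C1 (0.71 ± 0.10) and AKR1C2 (0.91 ± 0.09) and the exporter ABCC3 (0.99 ± 0.12) rose, AKR1C2 from 107, 104 and 115 CPM to 204, 207 and 200 CPM. NFE2L2, which encodes NRF2, fell by 0.87 ± 0.15, and FTL, the ferritin light chain, was called higher (0.79 ± 0.12) without the offset and not with it (0.00).

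Among called members, inflammatory genes were more often lower and antigen presentation genes more often higher, but the summed levels of both lists overlapped with control. The sums were 882 to 955 CPM for the NF-kB list in the combination and 914 to 959 CPM in control. For MHC class I presentation they were 3363 to 3444 and 3092 to 3470 CPM. Of 21 tested NF-kB and cytokine genes, 9 were lower (42.9%, against 36.5% of coding genes) and 4 higher, the latter 2 without combination library 2, and with the offset 12 were lower and 4 higher. Library totals gave 8 lower and 6 higher. The inhibitor TNFAIP3 (A20) fell by 1.95 ± 0.26, the coactivator NFKBIZ by 1.39 ± 0.15 and the cytokine IL6 by 1.10 ± 0.16, from 33.4 ± 4.92 to 15.6 ± 0.751 CPM. Of 30 tested interferon response genes, 9 were higher and 10 lower, against 6 and 5 with the offset and 13 and 5 with library totals. OAS3, an antiviral enzyme, fell by 1.28 ± 0.19. In MHC class I presentation 11 of 19 tested were higher and 4 lower, and with the offset 7 and 5. HLA-E rose by 0.81 ± 0.13, while the class I light chain B2M fell by 0.67 ± 0.14 and the peptide trimmer ERAP1 by 1.24 ± 0.19.

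Metabolic lists differed from each other. Cholesterol and fatty acid synthesis genes were higher for 14 of 29 tested and lower for 6 (13 and 3 with the offset), with SREBF1, the lipogenic regulator, up by 1.04 ± 0.10 and MVD of the mevalonate route by 1.99 ± 0.29. ACLY, which supplies cytosolic acetyl-CoA, fell by 0.93 ± 0.14. Glycolysis and hypoxia genes were lower for 17 of 35 and higher for 7, and for 15 and 5 with the offset. Library totals gave 14 lower and 13 higher, and the higher calls numbered 3 or 4 without combination library 2 or any 1 of the control libraries, and 2 with DESeq2. In this list the glycolytic enzymes PGAM1 and PFKP fell by 1.00 ± 0.14 and 0.68 ± 0.10. Lysosome and autophagy genes were higher for 22 of 43 and lower for 13 (15 and 7 with the offset), among them the protease CTSD (1.96 ± 0.31), while UVRAG fell by 1.03 ± 0.15.

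Calls were also counted by gene class. Of 2618 tested long non-coding genes, 1151 were higher (44.0%) and 193 lower (7.4%), with a median of 0.64, and of 12491 protein-coding genes 3826 were higher (30.6%) and 4555 lower (36.5%), with a median of -0.06. With the offset 888 and 218 long non-coding genes and 3536 and 3901 coding genes were higher and lower, with medians of 0.41 and -0.01. The long non-coding transcripts were also shorter, with a median length of 1236 bases against 3678, and in the quintile of all tested genes with the shortest transcripts (53 to 1387 bases) 44.4% of genes were higher and 9.7% lower. The difference between the classes was not tested. NEAT1, the RNA scaffold of paraspeckles, stood at 658, 899 and 602 CPM in control and at 4884, 5042 and 3631 CPM in the combination (2.65 ± 0.18, adjusted p = 8.7e-07), above all 9 other libraries. MALAT1, its neighbour and a nuclear speckle RNA, rose by 0.72 ± 0.14 and the imprinted KCNQ1OT1 by 0.97 ± 0.13. Of 34 tested SR proteins and hnRNPs, 10 were lower and 5 higher, but 5 were lower and 22 higher with the offset. The higher calls numbered 12 with library totals and 8 without combination library 3. The splicing factors SRSF7 (-1.23 ± 0.14) and TRA2B (-1.07 ± 0.15) fell in both fits, and HNRNPR (-0.72 ± 0.10) turned to 0.19 with the offset. Antisense genes are uncertain, since the strand setting of the counting is not given in the sources used here.

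Smaller lists held a few clear changes. Of 15 tested clock genes, 8 were lower and 1 higher, and with the offset 6 and 1. CRY1, a repressor of the clock, fell by 1.18 ± 0.16 and DBP, a clock output, rose by 0.81 ± 0.14, while CLOCK (-0.75 ± 0.11) turned to 0.14 with the offset. Of 36 tested histone lysine methyltransferases and demethylases, 18 were lower and 5 higher, against 15 and 5 with the offset and 13 each way with library totals. The higher calls numbered 3 without combination library 2 and 1 without control library 3. SETD7 fell by 1.75 ± 0.22, the demethylase KDM6A by 1.40 ± 0.19 and SUZ12, a Polycomb subunit, by 1.05 ± 0.15. Only 4 of 25 gastric and intestinal lineage genes passed the filter. Of these, MUC6, the gland mucin of the stomach, rose from 2.62 ± 0.613 to 22.0 ± 8.64 CPM without overlap (3.06 ± 0.36, adjusted p = 5.9e-05), CDX2 rose by 1.21 ± 0.29, GATA4 fell by 0.48 ± 0.12, and MUC1 (0.89 ± 0.20) turned to -0.20 with the offset.

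Among called coding genes with a mean log2 CPM of at least 1 and no overlap between the groups, the largest rises were of genes with low control levels. SPATC1, a centriole protein gene (chromosome 8, 144012414 to 144047085), went from 1.30 ± 0.715 to 15.3 ± 6.49 CPM (3.56 ± 0.41). SCX, the tendon factor scleraxis (3.17 ± 0.40), MUC6, given above, CAPS (2.80 ± 0.37), RAB4B (2.78 ± 0.31), RTEL1-TNFRSF6B (2.70 ± 0.36) and GPT (2.68 ± 0.36) followed in this order, and none of their control libraries overlapped with the combination. The offset changed the order: SPATC1 rose by 2.53, SCX by 1.58 and MUC6 by 2.59. CAPS and RAB4B then rose by 2.39 each, RTEL1-TNFRSF6B by 1.95 and GPT by 1.58. SCX stood at 13.0, 24.5 and 7.84 CPM in combination libraries 1 to 3. Except for SPATC1, combination library 3 lay below crizotinib library 2 in each of these genes. Outside coding genes the pseudogene IGFL1P1 rose from 5.09, 7.56 and 5.00 CPM to 67.2, 109 and 52.7 CPM (3.69 ± 0.33), and the adjoining AC007785.1 (chromosome 19, 46101122 to 46196218) by 3.51 ± 0.36. PECAM1, an adhesion molecule best known from endothelium, rose from 6.51 ± 0.165 to 27.1 ± 4.22 CPM (2.06 ± 0.16), above all other libraries, while the endothelial markers VWF and KDR had 2 and 0 reads in the 12 libraries. CDH5, the endothelial cadherin, had 2330 reads and went from 13.6 ± 1.69 to 9.44 ± 0.121 CPM (-0.52 ± 0.15, adjusted p = 0.0091), a call lost with library totals. Among the largest falls outside the inducible genes, the T-box factor TBX20 changed by -2.60 ± 0.37, and the RPSA pseudogenes RPSAP47 and RPSAP15 (-2.53 ± 0.46 and -2.20 ± 0.40), which may share reads with RPSA, are uncertain.

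The combination was then set beside each drug alone. Against crizotinib alone only FOS and FOSB were called, both lower, 0.0117% of tested genes, although 3697 genes had an unadjusted p under 0.05 and DESeq2 called 9 higher and 5 lower. FOS stood at 168, 145 and 120 CPM with crizotinib, against 9.82, 11.1 and 18.0 CPM with both drugs (-3.48 ± 0.21, edgeR adjusted p = 1.6e-06). FOSB stood at 24.6, 27.2 and 18.0 CPM with crizotinib and at 2.39 to 2.92 CPM with both (-3.11 ± 0.21, adjusted p = 3.9e-06). Both were called in all 23 alternatives run, with changes of -3.80 to -3.31 for FOS and -3.27 to -2.98 for FOSB. They were also lower than with IN10018 alone, by -4.97 ± 0.22 and -6.18 ± 0.22, and were the 2 genes called in 1 direction against control and against each single drug. TRIB1 (0.01 ± 0.13), CCN1 (0.01 ± 0.13) and NR4A2 (0.09 ± 0.13) differed from crizotinib alone by less than their errors, and for ATF3 the error was wide (-0.01 ± 0.37).

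The calls against crizotinib depended on how the libraries were handled. Replicate numbers were taken to pair the crizotinib and combination libraries by the correlation of their deviations, not by any label. The pairing is uncertain, since combination library 3 correlated at 0.422 with crizotinib library 1 and at 0.275 with crizotinib library 3. The block gave each replicate number a shared effect over all 12 libraries. It thus also covered the control and IN10018 libraries, whose numbers gave no pairing. With the replicate number as a block 90 genes were higher and 4 lower. The 4 were FOS (-3.50), FOSB (-3.10), EGR1 (-0.72, adjusted p = 0.035) and the pseudogene RPL34P20 (-3.53, adjusted p = 0.035). EGR1 was called in 5 of the 23 alternatives run. The 90 that were higher ran from 0.47 to 2.62 with a median of 0.80, and their median GC content was 62.3% against 48.2% for all tested genes. Among them were MUC6 (1.18), SPATC1 (1.27) and IGFL1P1 (1.03). On the first principal component crizotinib library 2 lay away from the other crizotinib libraries, at 57.78 against -4.61 and 10.34, with a mitochondrial share of 5.208% against 13.273 and 9.461%, and its median log2 ratio to control ran from -0.53 in the lowest to 0.67 in the highest GC quintile. The same gradient was present in crizotinib libraries 1 (-0.19 to 0.21) and 3 (-0.20 to 0.31). Without crizotinib library 2, the calls were 2614 higher and 3026 lower.

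Against IN10018 alone, 5079 genes were higher (29.7%) and 4706 lower (27.5%). NEAT1, at 1798 CPM with IN10018 alone and 3072 with crizotinib alone, was higher by 1.33 than with IN10018, and MET and PTK2 were lower by -1.32 and -0.96. A pair of genes was called in opposite directions against control and against IN10018. TPPP3, a tubulin polymerisation protein, had 2.75 ± 0.238 CPM in control, 1.09 ± 0.138 with IN10018 and 1.90 ± 0.203 with both drugs, and TMEM161B-AS1, an antisense RNA, had 6.38 ± 0.664, 13.6 ± 1.38 and 10.1 ± 0.844 CPM. Over the 17096 tested genes the 3 combination libraries lay above all 9 other libraries for 704 genes (4.12%) and below them for 566 (3.31%). In the S phase list 10 of 46 members lay below all others, in the recombination list 7 of 32, and among immediate early genes 4 of 22 (FOS, FOSB, EGR1 and JUN).

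**Figure D5:**
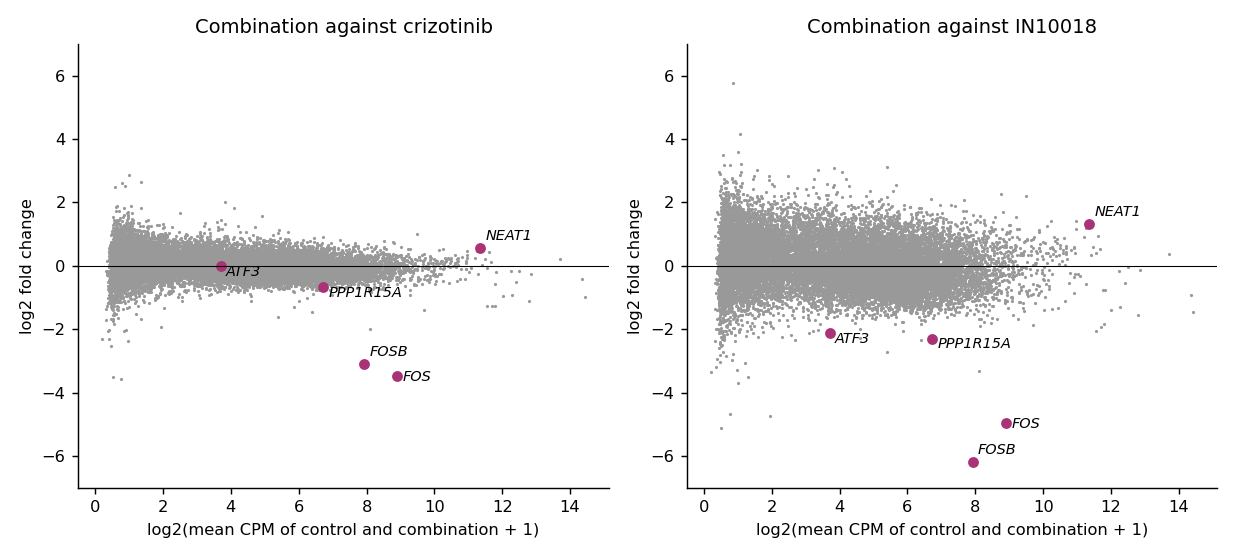
Log2 change of the combination against crizotinib alone (left) and against IN10018 alone (right), vertical, over log2(mean CPM of control and combination + 1) (horizontal) for every tested gene (grey), with 5 named genes in purple. FOS and FOSB lie apart at the bottom of both panels, at -3.48 and -3.11 against crizotinib, where ATF3 lies at -0.01.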

How the data were processed

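The authors deposited a matrix of raw counts, whole read counts per gene without normalization, for 12 libraries. Per the submitters' processing notes, Trimmomatic, FastQC, HISAT2, featureCounts and DESeq2 were used with builds hg38 and GRCh38. Their versions, the annotation and the strand setting are not given in the sources used here. Per the labels' protocols, RNA came from TRIzol extraction and a directional library kit.

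Libraries were grouped by the treatment label, 4 groups of 3, with 13691844 to 20489708 reads each. All 12 entered 1 fit with edgeR 4.0.16 (R 4.3.3): TMM scaling, the filterByExpr filter (17096 genes kept) and a robust quasi-likelihood F test, with Benjamini-Hochberg adjustment over all tested genes and calls at an adjusted p under 0.05. An SE is the absolute log2 change divided by the square root of F. The common biological coefficient of variation was 0.139. Counts of reads of 1 library are not independent molecules, so intervals and floors cover counting error only. The share of mitochondrial reads was compared by an exact permutation test. The procedure was also run on simulated counts with few changed genes, as many up as down, independent libraries and no GC gradient. The data differ in each of these points, so that run does not show that the calls or the scaling hold here.

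Gene classes, GC content and transcript lengths came from GENCODE 29 on GRCh38, which holds 96.52% of the deposited identifiers. Promoter sequences came from RefSeq (GRCh38.p14), 250 bases before the start.

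The comparison, the gene lists (written from general knowledge) and the genes named were chosen with earlier results of these data known. The naming rule took, against control, the genes with the largest change among those called with a mean log2 CPM of at least 1 and no overlap (8 coding and 3 others each way), the 6 smallest p-values, PTK2, MET, ALK, ROS1, CDH1, YAP1, TXN and TXNRD1, from each list with at least 3 called members the 4 smallest p-values, and genes called the same way against control and both single drugs. Some are not reported here. Other genes printed with values were chosen after their values were seen, in part from the lists by role: SRC, CCN2, KRT8, COL3A1, SRF, KLF4, NR4A1, NR4A2, NR4A3, MYC, IER2, IER3, DUSP1, ZFP36, AXL, IGF1R, ERBB3, SPRY2, SPRY4, SPRED1, ETV5, DUSP6, CCND1, DUSP4, LATS1, STK4, ITGA10, RRM2, MCM6, KIF11, RB1, MT-CO1, MT-ND5, MT-ND6, ATF4, DDIT3, SLC7A11, HSPA5, TXNRD2, TXNIP, NFE2L2, B2M, MALAT1, CD14, CEBPA, CDH5, PECAM1, RPL34P20, TPPP3, TMEM161B-AS1.

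A pairing by replicate number was looked for in the correlation of deviations from group means. For crizotinib and the combination the same-number correlations were 0.218, 0.624 and 0.275, all over 0.1, so the numbers were taken to pair these libraries, although crizotinib library 1 correlated at 0.422 with combination library 3. This pairing comes from the data, not from the labels. For control they were -0.004, 0.127 and 0.043, and for IN10018 -0.028, -0.012 and 0.055, which gives no pairing.

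Alternatives were DESeq2 1.42.0, limma-voom (limma 3.58.1), scaling by library totals or by DESeq2 size factors, testing without a filter, a stricter filter (1 CPM in 3 libraries and 100 reads), a replicate block, only the 6 libraries compared, the within-group axis as covariate, removal of mitochondrially encoded genes, and leaving out each library. The GC content and length offset was added after seeing the data.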

Additional observations from a re-analysis of the deposited data

How the results depend on the processing

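Against control, the numbers of higher and lower genes stayed within 1.5 times of 5761 and 4968 in all alternatives run. Leaving out a library gave 4473 to 6132 higher and 4399 to 5242 lower. The replicate block gave 5914 higher and 5096 lower, and since the numbers do not pair these libraries it is given as a value only. Against IN10018 the same held, and leaving out a library gave 3600 to 5435 higher and 4109 to 5035 lower, and the block 5331 and 4905. Against crizotinib, where 0 genes were higher and 2 lower, DESeq2 called 9 higher and 5 lower, the replicate block 90 and 4, no filter 772 and 972, and the within-group axis as covariate 2834 and 3286. Leaving out a library there gave 0 to 2614 higher and 2 to 3026 lower. The cause of these moves was not tested. The mitochondrial share differed by -5.93 to -4.57 percentage points when a library was left out, and by -4.83 as a share of protein-coding reads. Of 194 genes named by the rule and followed here, 4 changed sign with the GC content and length offset: CLOCK (0.14), HNRNPR (0.19), MUC1 (-0.20) and TUBB3 (-0.077). A further 12 were no longer called with it, and 178 kept their call. With library totals, without combination library 2, without control library 1 and without control library 3, TXN was no longer called. The number of libraries, 3 in each group, limits what the share of mitochondrial reads can show, and depth limits CCN2 and KLF4, which had at most 2 reads in a combination library.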
